A study of Mus musculus with 15 samples.

Results

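The 9 genes described here encode core parts and partners of the Polycomb repressive complexes in HSC: the PRC2 genes Ezh1, Ezh2, Eed, Suz12 and Jarid2 and the PRC1 genes Bmi1, Cbx7, Ring1 and Rnf2. They were taken by name from the count table of 16154 genes, and all 9 had a row and at least 15 counts in every library. HSC were sorted as Lin-Sca-1+cKit+CD150+CD48- cells from female C57BL/6 mice, with 1 library per mouse and 20000 to 25000 cells per library. There were 5 young mice of 6 to 12 weeks, 5 aged mice of 20 to 24 months and 5 aged mice of the same age range that drank water with 3 mg/ml nicotinamide riboside (NR), a precursor of NAD, for 2 months. The young and aged groups received no NR, and there was no group of young mice given NR.

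PRC2 places methyl groups on lysine 27 of histone H3, a mark of silent genes. Ezh1 and Ezh2 are its alternative catalytic subunits, Eed binds the finished mark and Suz12 holds the complex together, while Jarid2 helps to bring PRC2 to its targets. PRC1 attaches ubiquitin to histone H2A through the E3 ligases Ring1 and Rnf2. Bmi1 is the partner of the ligase, and Cbx7 reads the mark that PRC2 leaves. In HSC these complexes keep genes of cell cycle arrest and of lineage commitment silent, and mice without Bmi1 lose HSC self-renewal.

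Young libraries held 2122221 to 3631395 counts, aged libraries 764119 to 13318989 and NR-treated aged libraries 2486399 to 3595384. Levels are in CPM, the counts of a gene relative to the size of its library. A value of 3 counts, taken as not told from 0, was worth 0.254 to 3.89 CPM in these libraries, and covers counting error only. Library sizes were scaled by edgeR's TMM method. The 10 HSC marker genes checked were present in every library, at a summed level of 1360 to 1970 CPM. Single markers differed at an adjusted p under 0.05 in edgeR. In aged against young HSC 4 of the 10 were higher and 0 were lower, against 9.68% and 9.63% of all genes. These were Procr, Ly6a, Slamf1 and Hoxb5, with log2 fold changes of 1.27, 1.21, 0.84 and 0.69. After NR, Slamf1 alone differed from aged HSC (-0.51), against 8.07% of all genes. Markers of mature blood cells (27 of 29 listed had a row) took 0.792% to 1.14% of counts in aged HSC and 0.0596% to 0.145% in NR-treated aged HSC. Young replicate 3 held 1.18%, and the other young libraries held 0.0848% to 0.435%. Despite the female label, 4 Y-linked genes summed to 104 and 108 CPM in young replicates 1 and 5. In the other 13 libraries they summed to 0.757 to 3.16 CPM. Results without these replicates are therefore also given where they change, but only for some results. These are the Polycomb genes named above, the count of other Polycomb machinery genes called and the ratio of Ezh2 to Ezh1. Tests of the separate gene lists and of other single genes are given with all young libraries only. Because bulk RNA was measured, fewer cells of a type and less RNA per cell cannot be told apart.

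Promoter sequences are shown for the 4 genes whose transcript level differed between aged and young HSC, Ezh1, Ezh2, Suz12 and Bmi1. Each runs 5′ to 3′ on the strand of the gene from 250 bases before the RefSeq start to 20 bases after it (GRCm38.p6), and capitals mark an E2F-type octamer (TTTCCCGC or TTTGGCGC), searched on both strands.
Ezh1, chr11:101226444-101226713, minus strand: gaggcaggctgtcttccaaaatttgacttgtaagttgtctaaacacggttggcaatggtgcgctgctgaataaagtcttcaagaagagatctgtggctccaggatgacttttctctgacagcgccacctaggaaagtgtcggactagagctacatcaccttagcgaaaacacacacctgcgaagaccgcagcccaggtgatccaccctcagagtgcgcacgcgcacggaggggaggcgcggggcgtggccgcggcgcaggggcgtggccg
Ezh2, chr6:47595011-47595280, minus strand: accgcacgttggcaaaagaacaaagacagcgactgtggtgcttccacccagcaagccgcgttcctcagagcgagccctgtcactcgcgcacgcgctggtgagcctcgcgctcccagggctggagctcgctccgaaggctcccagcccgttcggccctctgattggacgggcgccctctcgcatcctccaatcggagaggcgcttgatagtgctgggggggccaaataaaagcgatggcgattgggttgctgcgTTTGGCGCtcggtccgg
Suz12, chr11:79992856-79993125, plus strand: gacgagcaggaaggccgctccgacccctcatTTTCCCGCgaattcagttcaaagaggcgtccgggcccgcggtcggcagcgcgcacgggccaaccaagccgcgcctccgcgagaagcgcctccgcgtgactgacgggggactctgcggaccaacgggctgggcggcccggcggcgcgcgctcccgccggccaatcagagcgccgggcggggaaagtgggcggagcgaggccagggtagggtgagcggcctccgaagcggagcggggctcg
Bmi1, chr2:18676768-18677037, plus strand: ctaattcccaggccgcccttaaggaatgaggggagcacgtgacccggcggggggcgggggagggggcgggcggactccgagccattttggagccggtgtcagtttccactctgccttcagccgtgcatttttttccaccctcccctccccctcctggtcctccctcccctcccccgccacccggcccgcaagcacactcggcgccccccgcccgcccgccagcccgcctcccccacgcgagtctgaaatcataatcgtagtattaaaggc
In windows of 300 bases, which end 50 bases after the start, all 9 genes matched an entry and Jarid2 had a second start. The E2F-type octamer was in 1.56% of all 32851 promoters and, among the 9 genes, in Ezh2 and Suz12, the pair of genes that were lower in aged HSC. Its first base lay at position 4 in Ezh2 and at position -219 in Suz12, where the start is position 1. CCAAT was in 37.4% of promoters and in 5 of the 9 genes (Ezh2, Suz12, Eed, Jarid2 and Cbx7). GGGCGG was in 35.7% of promoters and in 6 of the 9 (Suz12, Bmi1, Jarid2, Cbx7, Ring1 and Rnf2). No member window held TGACGTCA or CCGGAAGT, which 1.79% and 3.89% of promoters held. None of the marked octamers overlapped another of these motifs, and Ezh1 held none of the motifs searched. The promoters of Ezh2, Suz12 and Bmi1 had a GC content of 64.4%, 74.1% and 67.4%, against 57.8% in Ezh1. A match in a window is a description of its letters only.

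The first comparison asked which Polycomb genes differ between aged and young HSC. Both catalytic subunits of PRC2 differed, in opposite directions: Ezh1 rose 2.08-fold and Ezh2 fell to 0.584 of its young level. Suz12 fell to 0.526 of its young level, and Bmi1 rose 1.39-fold. Of the 9 genes, 2 were higher and 2 were lower at an adjusted p under 0.05 in edgeR's quasi-likelihood test, against 9.68% of all 16154 genes higher and 9.63% lower (19.3% in either direction). The values of aged and young libraries did not overlap for 2 of the 9 genes, Ezh1 (higher) and Ezh2 (lower), against 12.4% of all genes, 6.86% higher and 5.53% lower. Eed, Jarid2, Cbx7, Ring1 and Rnf2 did not pass the test.

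**Figure D1:**
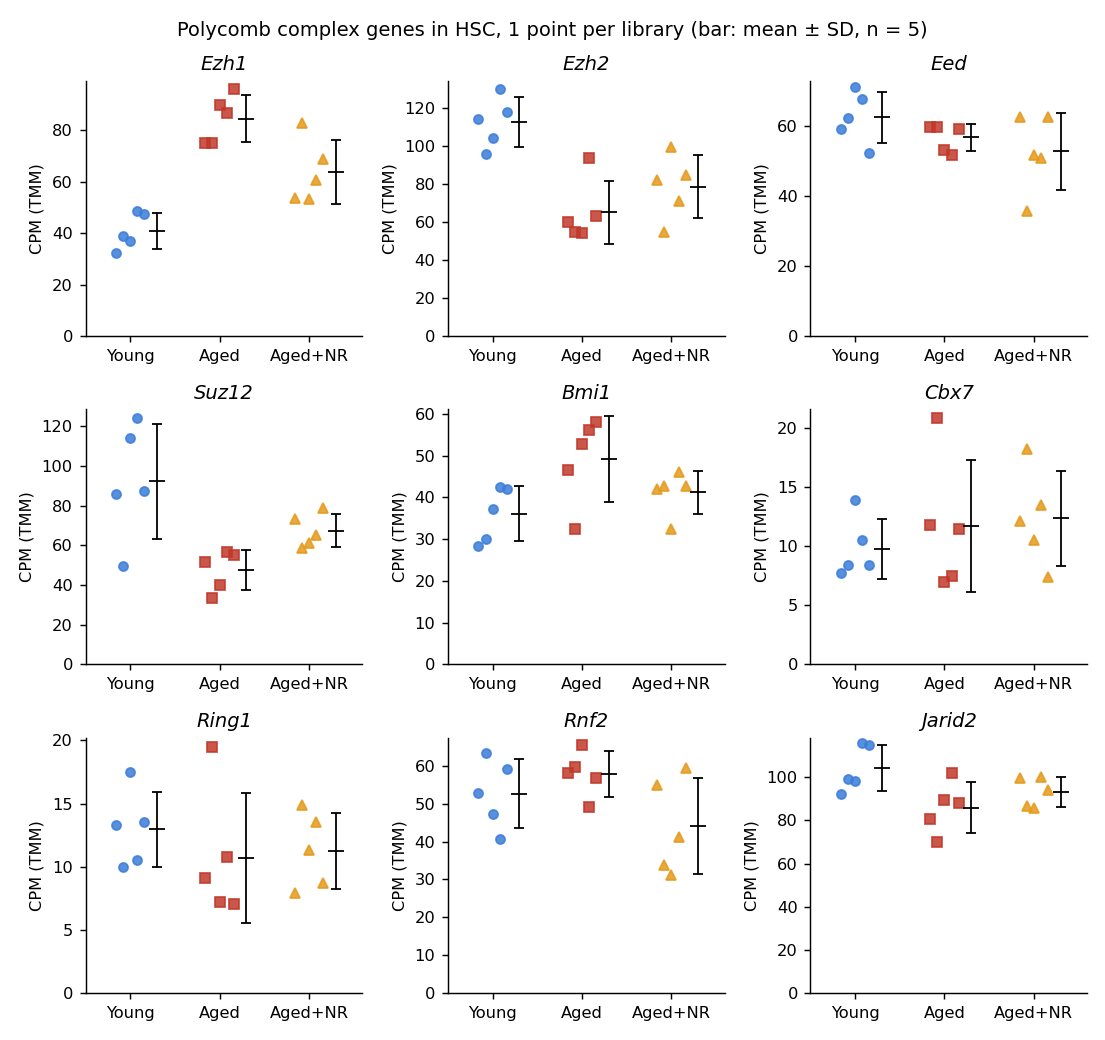
Level of each of the 9 Polycomb genes in CPM (y axis, from 0) by group, with 1 point per library and a bar for the mean ± SD of 5 libraries. Aged libraries lie above all young libraries for Ezh1 and below all of them for Ezh2, while the groups overlap for Eed, Cbx7, Ring1 and Rnf2.

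Ezh1 (ENSMUSG00000006920, chr11:101191115-101226463 on the minus strand of GRCm38) stood at 32.3, 39.0, 36.8, 48.6 and 47.5 CPM in young HSC and at 75.0, 75.2, 89.8, 86.9 and 96.0 CPM in aged HSC. Every aged library was above every young library. The young mean was 40.8 ± 7.02 CPM and the aged mean was 84.6 ± 9.25 CPM (SD, n = 5 each). The log2 fold change was 1.06 (SE 0.14, 95% interval 0.75 to 1.36, adjusted p = 4.97e-05 in edgeR's quasi-likelihood test). Young replicate 3, whose share of mature blood cell markers was as high as in aged HSC, had 36.8 CPM of Ezh1, within the range of the other young libraries.

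Ezh2 (ENSMUSG00000029687, chr6:47530139-47595341, minus strand) showed the opposite order. Young HSC had 114, 95.6, 104, 130 and 118 CPM, and aged HSC had 60.1, 54.5, 53.9, 93.7 and 62.9 CPM. Aged replicate 4 stood apart from the other aged libraries at 93.7 CPM but was still below the lowest young library. The means were 112 ± 13.1 CPM and 65.0 ± 16.5 CPM (SD, n = 5 each), with a log2 fold change of -0.78 (SE 0.16, 95% interval -1.11 to -0.44, adjusted p = 0.00267, edgeR). Without aged replicate 4 the log2 fold change was -0.95.

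Suz12 (ENSMUSG00000017548, chr11:79993106-80034123, plus strand) was at 86.0, 49.8, 114, 124 and 87.4 CPM in young HSC and at 51.6, 33.7, 40.0, 56.7 and 55.4 CPM in aged HSC. Young replicate 2, at 49.8 CPM, was the only young library inside the aged range. The log2 fold change was -0.93 (SE 0.19, 95% interval -1.32 to -0.53, adjusted p = 0.00234, edgeR). A lincRNA on the opposite strand, Gm26563, shares 178 bases with Suz12 exons and had at most 39 counts in a library, up to 17.3% of the Suz12 count. It was also lower in aged HSC (log2 fold change -1.67, adjusted p = 0.00916, edgeR). Whether counting used strand is not given in the sources used here, so reads from the shared bases cannot be assigned to either gene.

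Eed (ENSMUSG00000030619, chr7:89954654-89980983, minus strand), the subunit that binds the H3K27 mark, was at 52.1 to 71.0 CPM in young HSC and 51.7 to 59.7 CPM in aged HSC. The aged values lay almost wholly inside the young range, and the log2 fold change was -0.14 (95% interval -0.43 to 0.15, adjusted p = 0.522, edgeR). Jarid2 (ENSMUSG00000038518, chr13:44729474-44921643, plus strand) was at 92.3, 99.3, 98.3, 116 and 115 CPM in young and at 80.6, 70.1, 89.3, 102 and 88.0 CPM in aged HSC. Only aged replicate 4 was inside the young range, but the difference did not pass the threshold (log2 fold change -0.26, 95% interval -0.49 to -0.03, adjusted p = 0.102, edgeR). It passed with library totals in place of TMM sizes and without genes with a mean under 5 CPM, with adjusted p values of 0.0111 and 0.0387. In the other 24 of 26 alternative settings Jarid2 did not pass. Thus the PRC2 genes Ezh1, Ezh2, Suz12 and Eed did not move as a unit. Ezh1 was higher, Ezh2 and Suz12 were lower, and Eed showed no detectable difference.

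Among the PRC1 genes, Bmi1 (ENSMUSG00000026739, chr2:18677018-18686629, plus strand) was at 28.4, 30.1, 37.3, 42.4 and 42.1 CPM in young HSC and at 46.5, 32.4, 52.8, 56.0 and 58.0 CPM in aged HSC. Aged replicate 2, the shallowest library with 25 Bmi1 counts, lay inside the young range and the other aged libraries lay above it. The log2 fold change was 0.48 (SE 0.16, 95% interval 0.15 to 0.80, adjusted p = 0.0371, edgeR). This call was close to the threshold and was lost when any 1 of young replicates 1, 2 and 3 or aged replicates 3, 4 and 5 was left out (adjusted p of 0.0502 or more). It was also lost without young replicates 1 and 5 together (adjusted p = 0.110).

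The PRC1 ligases were not detectably different. Rnf2 (ENSMUSG00000026484, chr1:151458004-151500955, minus strand) was at 40.6 to 63.5 CPM in young HSC and 49.1 to 65.7 CPM in aged HSC, with a log2 fold change of 0.13 (95% interval -0.22 to 0.49). Its paralog Ring1 (ENSMUSG00000024325, chr17:34020792-34024680, minus strand) was at 10.0 to 17.5 and 7.03 to 19.5 CPM, with a log2 fold change of -0.43 (95% interval -0.99 to 0.12). Cbx7 (ENSMUSG00000053411, chr15:79915807-79971119, minus strand) was at 7.72 to 13.9 and 6.93 to 20.8 CPM, with a log2 fold change of 0.12 (95% interval -0.49 to 0.73). The intervals of Ring1 and Cbx7 were wider than those of the other members. Both had as few as 15 and 16 counts in the shallowest aged library, where they were also at their highest CPM. The 3′ ends of Cbx7 and Rnf2 overlap Apobec3 and Trmt1l on the opposite strand, over 100 and 158 exonic bases. Apobec3 reached 2597 counts in a library and Trmt1l 283, so counts in the overlaps would weigh most on Cbx7.

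**Figure D2:**
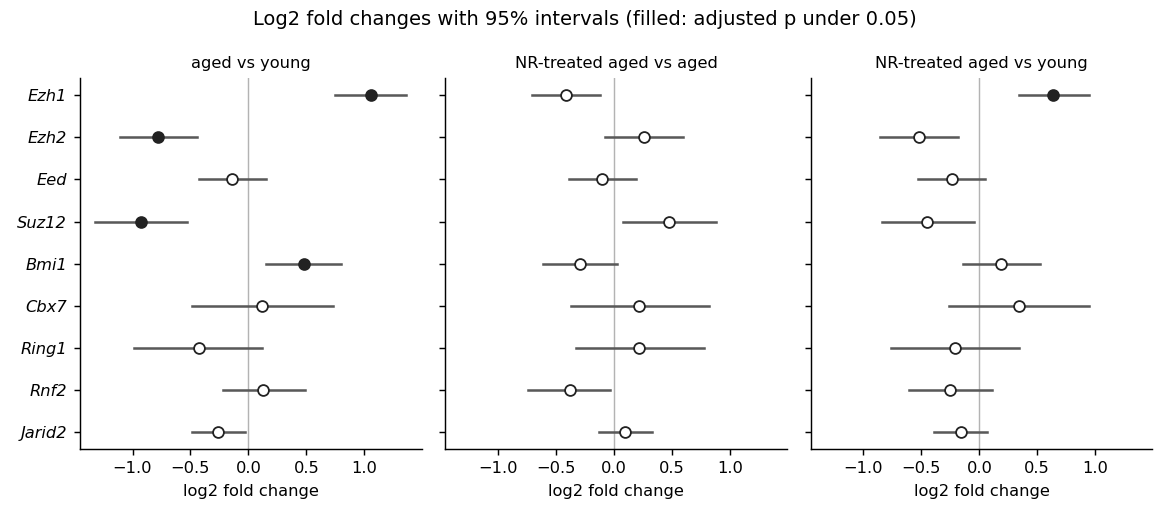
Log2 fold changes (x axis) of the 9 Polycomb genes with 95% intervals for the 3 comparisons, with filled points for an adjusted p under 0.05. In aged against young HSC 4 points are filled, in NR-treated aged against aged HSC none, and in NR-treated aged against young HSC only Ezh1.

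The second comparison asked whether the members differ between aged HSC with and without NR. None of the 9 genes passed the test, against 8.07% of all genes in either direction, 3.88% higher and 4.18% lower. At an unadjusted p under 0.05 there were 3 of 9 (Ezh1, Suz12 and Rnf2), against 25.1% of all genes, a share close to this background. The counts of calls were 0 in the likelihood ratio test, 0 in DESeq2 and 1 (Ezh1) in limma-voom, where 10.7%, 11.2% and 10.9% of all genes were called. Of the 4 genes called between aged and young HSC, each had its NR-treated mean between the aged and the young mean. The comparisons with aged HSC share the 5 aged libraries, so this order is given as values only.

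Ezh1 was at 53.7, 82.9, 53.3, 60.6 and 68.9 CPM in NR-treated aged HSC. In 4 of 5 libraries it was below every aged library, and NR-treated replicate 2 was inside the aged range. The mean was 63.9 ± 12.4 CPM (SD, n = 5), and the log2 fold change against aged HSC was -0.41 (SE 0.14, 95% interval -0.71 to -0.12, adjusted p = 0.0746, edgeR). Without NR-treated replicate 2 it was -0.52 and passed the test, with an adjusted p of 0.0348. It did not pass in 24 of 26 alternative settings, with adjusted p up to 0.342.

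Ezh2 was at 81.9, 54.9, 99.6, 71.2 and 84.7 CPM after NR. These values overlapped the aged range over most of its length and reached into the young one. The mean was 78.4 ± 16.6 CPM (SD, n = 5), and the log2 fold change against aged HSC was 0.26 (SE 0.16, 95% interval -0.08 to 0.60, adjusted p = 0.339, edgeR).

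Suz12 was at 73.4, 58.7, 61.4, 65.4 and 78.7 CPM after NR. All 5 libraries were above the highest aged library at 56.7 CPM. Suz12 was the only member that lay higher without overlap, as 3.65% of all genes did. For the other members the groups overlapped. The log2 fold change was 0.48 (SE 0.19, 95% interval 0.08 to 0.88, adjusted p = 0.122, edgeR). It passed without young replicate 2, which varied from the other young libraries and enters the shared estimate of spread (adjusted p = 0.0473). It likewise passed when only the aged and NR-treated libraries were fitted (adjusted p = 0.0473). It did not pass in 23 of 26 alternative settings, with adjusted p up to 0.360.

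Bmi1 was at 42.1, 42.6, 32.3, 46.0 and 42.8 CPM after NR, with a log2 fold change of -0.29 against aged HSC (95% interval -0.61 to 0.03, adjusted p = 0.248, edgeR). Rnf2 was at 55.1, 33.7, 31.1, 41.3 and 59.4 CPM, and 3 of these 5 libraries were below the lowest aged library. Its log2 fold change of -0.38 did not pass (95% interval -0.74 to -0.03, adjusted p = 0.161, edgeR). Eed ranged from 35.8 to 62.6 CPM and Jarid2 from 85.6 to 100 CPM, with log2 fold changes of -0.10 and 0.10. Cbx7 and Ring1 were at 7.35 to 18.2 and 7.91 to 14.9 CPM, and both had a log2 fold change of 0.22. For these last 4 genes the groups overlapped and each 95% interval held 0. NR-treated replicate 2 had the highest Ezh1 of its group and the lowest Ezh2, Eed and Suz12.

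Against young HSC, NR-treated aged HSC differed in 1 of 9 genes, which was higher, against 4.47% of all genes (2.56% higher and 1.91% lower). This was Ezh1, with all 5 NR-treated libraries above all young libraries, as for 2.80% of all genes, and a fold change of 1.56 (log2 0.64, SE 0.15, 95% interval 0.34 to 0.95, adjusted p = 0.0125, edgeR). With all libraries thinned to the smallest total its adjusted p was 0.0547. Ezh2 did not pass, with a log2 fold change of -0.52 (95% interval -0.86 to -0.18, adjusted p = 0.0726, edgeR), and NR-treated replicate 3 at 99.6 CPM was the only library inside the young range. It passed without aged replicate 4, without NR-treated replicate 3 and in DESeq2 (adjusted p = 0.0352, 0.0412 and 0.0374), and narrowly in edgeR's likelihood ratio test. Ezh2 did not pass in the other 22 of 26 alternative settings, with adjusted p up to 0.207. Suz12 had a log2 fold change of -0.45 (adjusted p = 0.207, edgeR), and without young replicate 2 it was -0.60 (adjusted p = 0.0243). In the other 25 of 26 alternative settings Suz12 did not pass. The other 6 genes had adjusted p values of 0.399 to 0.744.

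Because Ezh1 and Ezh2 are alternative catalytic subunits, their counts were also divided within each library, which needs no scaling between libraries. The counts are of 3′ tags, and the ratio was read only as a change between groups. In young HSC there were 3.51, 2.45, 2.82, 2.67 and 2.48 Ezh2 counts per Ezh1 count. In aged HSC there were 0.802, 0.726, 0.600, 1.08 and 0.655. In NR-treated aged HSC there were 1.52, 0.662, 1.87, 1.17 and 1.23. The young libraries were thus above all others, and 4 of the 5 NR-treated libraries were above the highest aged library, while NR-treated replicate 2 fell inside the aged range.

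The mean log2 ratio was 1.46 ± 0.21 in young, -0.40 ± 0.33 in aged and 0.29 ± 0.56 in NR-treated aged HSC (SD, n = 5 each). Aged HSC were 3.65-fold lower than young HSC (log2 difference -1.87, adjusted p = 0.0119, two-sided exact permutation test). Ezh1 and Ezh2 each separated these groups, in opposite directions, so the ratio had to separate them too. This p was thus fixed in advance and adds no evidence to the values of the genes. NR-treated aged HSC were 2.26-fold lower than young HSC (-1.18, adjusted p = 0.0119, exact permutation test). NR-treated libraries had at most 99.6 CPM of Ezh2 and at least 53.3 CPM of Ezh1. Young libraries had at least 95.6 CPM of Ezh2 and at most 48.6 CPM of Ezh1. These ranges place every NR-treated ratio below every young one, so this p was also fixed by the values of the genes and adds no evidence. Both differences from young HSC had an exact permutation p = 0.00794 before adjustment over 3 comparisons, the smallest that 5 against 5 libraries allow. Without young replicates 1 and 5, which held Y-linked transcripts, these differences were -1.80 and -1.11, with exact permutation p of 0.0179 and 0.0357 and an adjusted p of 0.0536 each, so that neither passed. Between NR-treated aged and aged HSC the ratio was 1.62-fold higher but did not pass (0.69, adjusted p = 0.0556, exact permutation test). Leaving out aged replicate 4 or NR-treated replicate 2 gave differences of 0.82 and 0.91 with adjusted p of 0.0317 and 0.0159 (exact permutation test). In 8 of 10 fits with a single library left out the ratio did not pass, with differences down to 0.54 and adjusted p up to 0.0952.

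**Figure D3:**
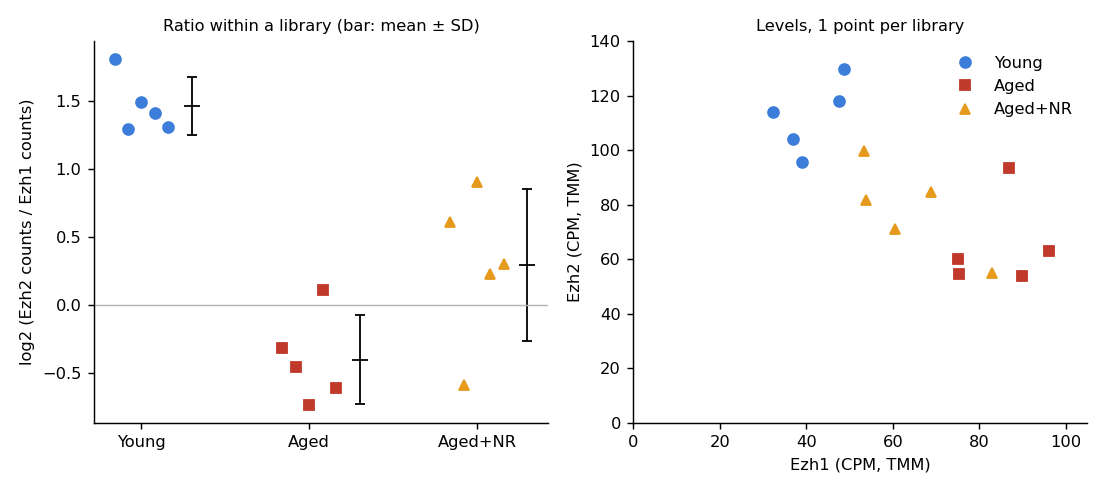
Left, log2 of Ezh2 counts over Ezh1 counts in each library by group, with a bar for the mean ± SD of 5 libraries. Right, the level of Ezh2 against that of Ezh1 in CPM, 1 point per library; young libraries lie at upper left and aged libraries at lower right, with 1 NR-treated library (Ezh2 at 54.9 CPM) among the aged ones.

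The levels of proliferation genes were set beside these values. The 20 genes of this list summed to 2350 to 3160 CPM in young, 1770 to 2530 CPM in aged and 1150 to 2400 CPM in NR-treated aged HSC. Aged replicate 4, with the highest Ezh2 of its group, also had the highest proliferation sum of the aged libraries. NR-treated replicate 2, with the lowest Ezh2 of its group, had the lowest sum of all libraries. In the other direction, young replicate 3 had the highest sum of all libraries (3160 CPM) but only 104 CPM of Ezh2, and the highest NR-treated sum (2400 CPM) was in replicate 1 while the highest NR-treated Ezh2 was in replicate 3. Between aged and young HSC, 5 of the 20 genes were lower and none was higher, against 9.63% of all genes lower. They included the DNA helicase genes Mcm3, Mcm4 and Mcm5 with log2 fold changes of -0.71, -0.65 and -0.56. The part of proliferation, and of the mature blood cells above, in the levels of Ezh1, Ezh2 and Suz12 was not tested.

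Of 44 other listed genes of the Polycomb machinery, 17 were lower and 1 was higher in aged than in young HSC, and 26 did not pass. The shares of all genes were 9.63% lower and 9.68% higher. The 44 genes had a median log2 fold change of -0.42, against -0.03 over all genes. The count of calls was 11, all lower, without young replicates 1 and 5 (5.71% of all genes lower) and 8, with 7 of them lower, with all libraries thinned to the smallest total (4.31% of all genes lower). Among the other PRC1 subunits and partners, 12 of 25 genes were lower and none was higher. These included Bcorl1, a paralog of the corepressor gene Bcor (28.2 ± 7.77 CPM in young HSC, 14.2 ± 1.99 CPM in aged HSC), and Fbrs (32.3 ± 9.42 and 15.7 ± 5.42 CPM), with log2 fold changes of -1.02 and -0.94. Phc2, a Polyhomeotic protein that links PRC1 complexes to each other, had a log2 fold change of -0.88.

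Of the 8 other PRC2 genes listed, 1 was called between aged and young HSC (12.5%), below the 19.3% of all genes. This was the histone chaperone gene Rbbp4, at 76.7 ± 11.5 CPM in young HSC and 52.5 ± 8.66 CPM in aged HSC (log2 fold change -0.56, adjusted p = 0.0121, edgeR). The PR-DUB complex removes the ubiquitin that PRC1 places. In its list 4 of 11 genes were lower and 1 was higher, against 9.63% of all genes lower and 9.68% higher. The lower ones included Asxl2 (-0.77), Mbd5 (-0.75) and Foxk2 (-0.71). Foxk1 was higher by 0.59. The list was thus split between paralogous transcription factors, Foxk1 and Foxk2.

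NR-treated aged HSC differed from aged HSC in 6 of these 44 genes (13.6%), against 8.07% of all genes. The PRC1 genes Kdm2b, which binds CpG islands, Pcgf5, a paralog of Bmi1, and Phc3 were higher, with log2 fold changes of 0.65, 0.54 and 0.44, as was Asxl2 (0.67). Rbbp7 and Foxk1 were lower, with log2 fold changes of -0.32 and -0.54. With library totals in place of TMM sizes 8 genes were higher and 0 were lower, so that neither of these lower calls held. Of all genes, 7.71% were higher and 2.13% were lower in that setting. Over the 44 genes the median was 0.23, against 0.02 over all genes. The 6 calls fell to 1 without aged replicate 3, without aged replicate 5, without NR-treated replicate 3 and without NR-treated replicate 4. The shares of all genes called in these settings also fell, to 2.61%, 3.76%, 3.33% and 3.31%. The calls fell to 2 without aged replicate 2, without aged replicate 4 and without NR-treated replicate 2 (6.44%, 5.42% and 5.62% of all genes). Without young replicate 5 the calls fell to 3 (7.09% of all genes). Against young HSC, only Bcorl1 and the transcriptional cofactor gene Hcfc1 passed, both lower (-0.69 and -0.50). These 2 of 44 genes (4.55%) were about the share called among all genes, 4.47%. The count fell to 1 without any 1 of young replicates 1, 3, 4 and 5, aged replicates 1, 3, 4 and 5 or NR-treated replicates 1, 4 and 5. In these settings 2.80% to 4.24% of all genes were called.

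**Figure D4:**
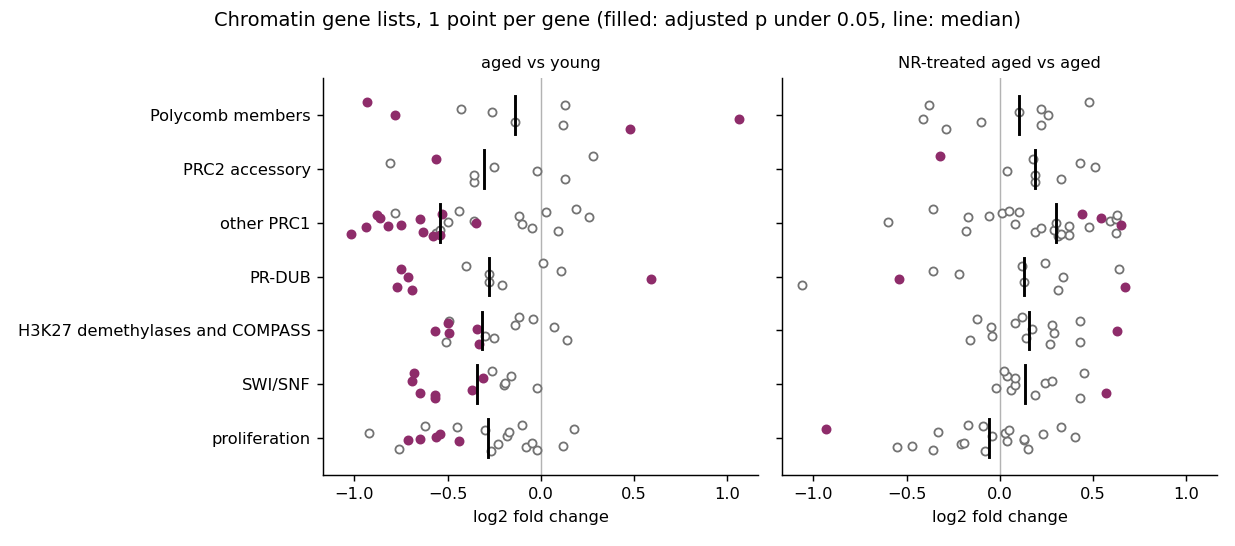
Log2 fold changes (x axis) of single genes in 7 chromatin and proliferation lists (rows) for aged against young HSC and NR-treated aged against aged HSC, with 1 point per gene, filled points for an adjusted p under 0.05 and a line at the list median. In aged HSC filled points lie mostly below 0, the exceptions being Ezh1, Bmi1 and Foxk1.

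The demethylases of H3K27 did not pass between aged and young HSC, with log2 fold changes of -0.25 for Kdm6a and -0.30 for Kdm6b (adjusted p = 0.221 and 0.139, edgeR). A list of 14 genes held these demethylases, Ash1l and the genes of COMPASS, which methylates lysine 4 of histone H3. Of the 14, 5 were lower, Ash1l included (-0.33), and none was higher, against 9.63% of all genes lower and 9.68% higher. They included Kmt2b (-0.57), Ncoa6 (-0.50) and Kmt2a (-0.49). In the SWI/SNF list, a chromatin remodeller that opposes Polycomb, 7 of 12 were lower, such as Smarcc1 (-0.69), and none was higher, against the same shares of all genes. In NR-treated aged against aged HSC, 1 gene of each list was called (7.14% and 8.33%), near the share of all genes, 8.07%. These were Kmt2b, higher by 0.63, and Arid2, a SWI/SNF subunit, higher by 0.57.

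Of 8 genes listed as targets of Polycomb silencing, 5 had a row, and Cdkn2a, Cdkn2b and Wt1 were not analysed here. Hmga2, a chromatin protein of fetal and young HSC, fell from 53.9 ± 5.20 CPM in young HSC to 33.1 ± 2.49 CPM in aged HSC (log2 fold change -0.72, adjusted p = 0.00567, edgeR) and was at 29.2 ± 8.80 CPM after NR. Hmga2 after NR did not differ from aged HSC (-0.17, adjusted p = 0.559, edgeR) and was lower than in young HSC (-0.89, adjusted p = 0.00302, edgeR). In that last comparison 2 of the 5 genes were lower, against 1.91% of all genes. The other was Ebf1, a regulator of B cell commitment, which was lower in NR-treated aged than in young HSC (log2 fold change -2.23, adjusted p = 0.0112, edgeR). Ebf1 is also expressed by mature B cells, whose markers differed between these groups. Pax5, Lin28b and Igf2bp3 did not pass in any comparison.

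For each member, the 3 genes with the most similar levels over the 15 libraries were taken from 10116 named genes whose mean was 5 CPM or more. The libraries share the differences between groups, so the correlations (Pearson, log2 CPM) describe the pattern only. Ezh2 was most like E2f1, Mlec and Syncrip, at 0.953, 0.951 and 0.925, and with each group's mean removed these were 0.894, 0.869 and 0.841. Ezh1 was most like Myof, Zfp1 and Alcam, at 0.942, 0.932 and 0.931, which fell to 0.719, 0.717 and 0.666 within groups. Suz12 was most like Usp25, Ddx6 and Kmt2c, at 0.928, 0.927 and 0.926. The similarity of Ezh1 to its closest genes thus rested more on the groups than that of Ezh2. Jarid2 was most like Rnf145 (0.918), Ctcf and Cep170, Rnf2 like Msmo1 (0.890), Erg28 and Grpel2, Bmi1 like F11r (0.883), Irak1bp1 and Trove2, Eed like Bub1b (0.870), Gsn and Sgo1, and Ring1 like Esrra (0.852), Hmbox1 and Hipk2. Cbx7, with few counts, had the lowest values, led by Ctnnb1 at 0.778, Znrf1 and Prr14.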

How the data were processed

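RNA sequencing of HSC gave 15 libraries, 5 each of young, aged and NR-treated aged mice. The authors made 3′ biased libraries with a 10 bp UMI, aligned reads to GRCm38 with STAR (2.4.2a by the submitters' processing notes), removed duplicated UMIs, counted reads on GENCODE exons with featureCounts, kept genes with more than 5 reads and 2 CPM in at least 2 samples, and deposited raw counts per gene.

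Counts were tested with edgeR 4.0.16 in R 4.3.3 (TMM sizes, 1 fit of 15 libraries on the group, quasi-likelihood test, Benjamini-Hochberg adjustment over 16154 genes, threshold 0.05), and the test was checked on simulated data. The Ezh2 to Ezh1 ratio (0.5 added to each count) was tested by two-sided exact permutation with Python 3.11.15 and SciPy 1.17.1. Gene positions are from GENCODE M21, promoters from RefSeq. No library repeated another of its group. Libraries that share a number came from different mice and were not paired.

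The members and gene lists were chosen with earlier results of these data known. Named are all members, Kdm6a, Kdm6b, up to 3 genes per list, comparison and direction with the largest called change and a mean of 5 CPM or more, and the 3 genes most alike each member. Pax5, Lin28b, Igf2bp3, Ash1l and genes that overlap members were named outside this rule, after their values were seen. Alternatives were the likelihood ratio test, DESeq2 1.42.0, limma-voom (limma 3.58.1), other scalings, filters, thinning, 2 groups only, a replicate block and leaving out libraries.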

Additional observations from a re-analysis of the deposited data

Results flagged for a closer look

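Among 30 sets of 5 libraries searched (each member and the Ezh2 to Ezh1 ratio in each group), 2 held a library far from the others, where chance flags about 1 in 20. Ezh2 in aged replicate 4 was at 93.7 CPM, while the other aged libraries were at 53.9 to 62.9 CPM, so that the gap took 0.775 of the range of the group. Bmi1 in NR-treated replicate 3 was at 32.3 CPM, while the other NR-treated libraries were at 42.1 to 46.0 CPM, a gap of 0.714 of the range. The critical value for 5 libraries is 0.710.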

How the results depend on the processing

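Each of the 27 member fold changes was recomputed under 26 alternatives, 702 values in all, of which 668 kept direction and side of the threshold, 11 lost a call, 12 gained one and 11 changed sign, all 11 of them not called. Ezh1, Ezh2 and Suz12 kept their calls between aged and young HSC under all 26, with adjusted p up to 0.000824, 0.0202 and 0.00997. The sign changes were Eed in aged against young HSC at 0.04 when thinned, Eed after NR against aged HSC at 0.04 with library totals and 0.01 without NR-treated replicate 2 (-0.17 to 0.01 with single libraries left out), Cbx7 in aged against young HSC at -0.05 in limma-voom, -0.0031 with library totals, -0.05 without aged replicate 2 (-0.05 to 0.27 with single libraries left out) and -0.06 without young replicates 1 and 5, and, with thinned counts, Cbx7 at -0.48 against aged and -0.31 against young, Ring1 at 0.13 against young and Jarid2 at -0.05 against aged HSC. The Bmi1 call had adjusted p of 0.0132 to 0.110 and was lost under 10 alternatives, among them library totals, the 2 groups alone (0.0535) and thinning. Between NR-treated aged and aged HSC 1 member was called by limma-voom, with library totals and with the 2 groups alone (0 to 1 with single libraries left out). These settings called 10.9%, 9.84% and 9.08% of all genes. Against young HSC 2 members were called by the likelihood ratio test and DESeq2 and 0 when thinned (1 to 2 with single libraries left out). Of all genes, 6.64%, 6.20% and 2.56% were called in these settings. For the 44 machinery genes, calls between aged and young HSC were 8 when thinned and 11 without young replicates 1 and 5 (13 to 20 with single libraries left out). Of all genes, 9.54% and 11.5% were called in these settings. After NR the calls against aged HSC were 1 when thinned (2.49% of all genes) and 2 without young replicates 1 and 5 (6.71%), and 1 to 7 with single libraries left out. Against young HSC 1 was called in limma-voom, with library totals, with the 2 groups alone and without young replicates 1 and 5 (3.46%, 4.51%, 3.22% and 3.61% of all genes). When thinned 0 were called (2.56% of all genes), and 1 to 2 with single libraries left out. The ratio difference ranged with single libraries left out from -2.0 to -1.78 (aged against young), 0.54 to 0.91 (NR-treated aged against aged) and -1.33 to -0.96 (NR-treated aged against young), and without young replicates 1 and 5 the differences from young HSC were -1.80 and -1.11, each with adjusted p of 0.0536 (exact permutation test). Library totals in place of TMM moved the median of all genes from -0.03 to -0.16 (aged against young) and from 0.02 to 0.16 (NR-treated aged against aged), and the share of higher among called genes from 50.1% to 29.1% and from 48.1% to 78.4%. The causes were not tested, beyond the fewer libraries or counts in some settings.

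With the replicate number as a block, 2 of the 44 machinery genes were called between NR-treated aged and aged HSC and 1 against young HSC. Of all genes, 6.49% and 3.65% were called. The ratio differences of -1.87 and -1.18 had adjusted p of 0.0938 (exact permutation of signs), where 5 pairs cannot go below an unadjusted p of 0.0625. The block changed no call of a member. Deviations from the group means correlated over same-numbered pairs by 0.00213 on average (-0.27 to 0.133, and 1 of 15 pairs above 0.1). No pairing by number was seen, but this cannot exclude a shared batch, which the sources used here do not give. Depth limited Cbx7 and Ring1, which had 15 to 85 counts per library.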
